A study of Mus musculus with 22 samples.

Results

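The RGS (regulator of G protein signalling) family was described through 10 of its genes, Rgs1, Rgs2, Rgs4, Rgs9, Rgs10, Rgs13, Rgs14, Rgs16, Rgs18 and Rgs19, out of 20674 protein-coding genes measured in 22 mouse RNA-seq libraries. The 10 genes were chosen by name from their TPM in these same libraries (TPM is a transcript level corrected for length and scaled to the same sum in every library). Their levels between cell types are therefore a description and carry no test. The other 10 genes of the same 4 subfamilies (Rgs3, Rgs5, Rgs6, Rgs7, Rgs8, Rgs11, Rgs12, Rgs17, Rgs20 and Rgs21) were measured alongside them.

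The libraries are poly(A) RNA profiles of mouse cells and tissues from a study that also profiled open chromatin, which is not analysed here. Each of the 22 groups held 1 library. Brain gave putamen, medulla oblongata and sensorimotor cortex. Basophils and CH12, a B-lymphoma line of which clone bc5 was profiled, gave 1 library each. Primary B cells came from C57BL/6J spleen by negative selection. They gave 6 activated cultures and splenic B cells. The stimuli named were aBCD180 in 1 culture, aCD40+IL4 in 1 culture and LPS in 4, alone or with IL4, with IL21 or with a-d-dextran. CD4 T cells gave 4 populations, each as a MUT and an unmarked library. These were follicular regulatory cells (Tfr, sorted as CD4+CD44+CXCR5+PD1+CD25+), follicular helper cells (Tfh), activated non-Tfh cells (sorted as CD4+CD44+CXCR5-PD1-CD25-) and CD4+ cells. CD4+ cells activated with the T-cell mitogen ConA and back skin made up the rest. The labels state neither the mutation behind MUT, nor ages, nor culture times, nor whether libraries came from separate animals, so any p-value measures only the spread between these samples. Total expected counts ran from 30.8 to 147.9 M per library, with a median of 46.2 M.

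RGS proteins speed up the GTPase activity of G protein alpha subunits and so shorten signals from G protein-coupled receptors. The R4 subfamily (Rgs1, Rgs2, Rgs4, Rgs13, Rgs16 and Rgs18 here) consists of small proteins that act mostly on Gi and Gq subunits, with Rgs2 known for its preference for Gq. Rgs19 belongs to the RZ subfamily. Rgs9 belongs to the R7 subfamily, whose proteins are stabilised by the G beta subunit Gnb5, and Rgs10 and Rgs14 belong to the R12 subfamily. In lymphocytes RGS proteins are known to limit responses to chemokine receptors, and in the striatum Rgs9 is known to limit dopamine and opioid receptor signals.

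The genes sit together in part. On chromosome 1 of the mm10 assembly, Rgs2 (chr1:143999338-144004149), Rgs13 (chr1:144137386-144177372), Rgs1 (chr1:144244669-144249104), Rgs21 (chr1:144519690-144567667) and Rgs18 (chr1:144752683-144775427) lie in this order within 776 kb, and the RefSeq table lists no other protein-coding gene among these 5. Their highest levels fell in different cell types, other than Rgs13 and Rgs21, which shared one. Rgs2 was highest in putamen, Rgs13 in CH12, Rgs1 in Tfr MUT cells and Rgs18 in basophils. Rgs21 was 3.16 TPM in CH12, from 78 expected counts, and at most 0.10 TPM in any other library.

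Upstream sequence is shown for 4 members with sharply different patterns: Rgs16 and Rgs9, which were high in the same T-cell libraries, Rgs13, which led CH12, and Rgs4, which was confined to brain at levels above 1 TPM. Each line gives 250 bases ending just before the annotated start of transcription, 5′ to 3′ on the gene's strand, from RefSeq on assembly GRCm38.p6. Of the 10 members, 7 had an entry, and Rgs1, Rgs14 and Rgs18 are named only. Capitals mark matches, on either strand, to 5 motifs: the TATA box TATAAA, the CCAAT box CCAAT, the GC box GGGCGG, the AP-1 motif TGANTCA and the cAMP response element TGACGTCA.
Rgs16, chr1:153740103-153740352, plus strand: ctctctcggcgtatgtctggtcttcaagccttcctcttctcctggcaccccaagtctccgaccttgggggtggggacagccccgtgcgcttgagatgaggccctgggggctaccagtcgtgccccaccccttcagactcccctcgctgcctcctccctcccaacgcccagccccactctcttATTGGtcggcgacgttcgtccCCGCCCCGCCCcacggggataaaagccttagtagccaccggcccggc
Rgs9, chr11:109298182-109298431, minus strand: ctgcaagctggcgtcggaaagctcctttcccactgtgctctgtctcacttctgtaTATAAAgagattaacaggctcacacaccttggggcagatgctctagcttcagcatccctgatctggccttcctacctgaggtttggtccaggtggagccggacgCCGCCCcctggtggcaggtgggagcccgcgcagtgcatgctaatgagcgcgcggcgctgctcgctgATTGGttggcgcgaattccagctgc
Rgs13, chr1:144177373-144177622, minus strand: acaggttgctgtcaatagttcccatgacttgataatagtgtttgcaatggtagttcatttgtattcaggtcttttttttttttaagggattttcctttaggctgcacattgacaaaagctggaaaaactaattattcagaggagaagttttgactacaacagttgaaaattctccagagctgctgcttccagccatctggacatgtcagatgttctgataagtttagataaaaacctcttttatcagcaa
Rgs4, chr1:169747643-169747892, minus strand: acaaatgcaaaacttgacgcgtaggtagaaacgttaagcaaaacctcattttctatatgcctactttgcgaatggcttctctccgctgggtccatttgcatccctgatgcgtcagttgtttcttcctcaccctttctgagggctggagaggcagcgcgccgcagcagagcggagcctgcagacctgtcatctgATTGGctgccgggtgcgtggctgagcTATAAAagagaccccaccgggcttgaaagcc

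In these windows, Rgs4 had a TATA box 31 bases before the start and an inverted CCAAT box 57 bases before it. Rgs16 had an inverted CCAAT box 68 bases before the start and overlapping GC boxes from 47 and 42 bases before it. The Rgs9 window held an inverted CCAAT box 25 bases, a GC box 91 bases and a TATA box 195 bases before the start. The Rgs13 window held none of the 5 motifs, which says only that these letters are not in it. Of 32851 windows of the same length in the table, 12.4% held the TATA box, 33.8% the CCAAT box, 32.7% the GC box, 6.75% the AP-1 motif and 1.55% the cAMP response element, so single matches to the first 3 are common. A match is a description of letters, not of a binding site.

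Each cell type had a leading RGS gene, taken over the summed TPM of all 20 RGS genes. In brain, Rgs4 led putamen (822 TPM, 38.3% of the sum) and sensorimotor cortex (637 TPM, 51.6%), and Rgs10 led medulla oblongata (149 TPM, 24.7%). Rgs19 led basophils (215 TPM, 30.8%). Rgs13 took 77.3% of the sum in CH12. Rgs19 also led all 7 primary B libraries, with 41.1% in aBCD180 cells to 63.4% in LPS+a-d-dextran cells. Rgs10 led all 9 CD4 T libraries, with 25.6% in Tfr MUT cells to 42.9% in CD4+ MUT cells. The lead over Rgs1 was narrow in ConA cells (31.0% against 30.1%) and in Tfr MUT cells, where Rgs1 had 24.2%. Rgs2 led back skin with 21.7%. Members present at 10 TPM or more numbered 8 in Tfr MUT, Tfr and Tfh cells, against 3 in back skin and in 4 of the B cultures. The members were chosen from these levels and the share of all genes at 10 TPM is not given here. Nothing is therefore read from these counts.

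**Figure D1:**
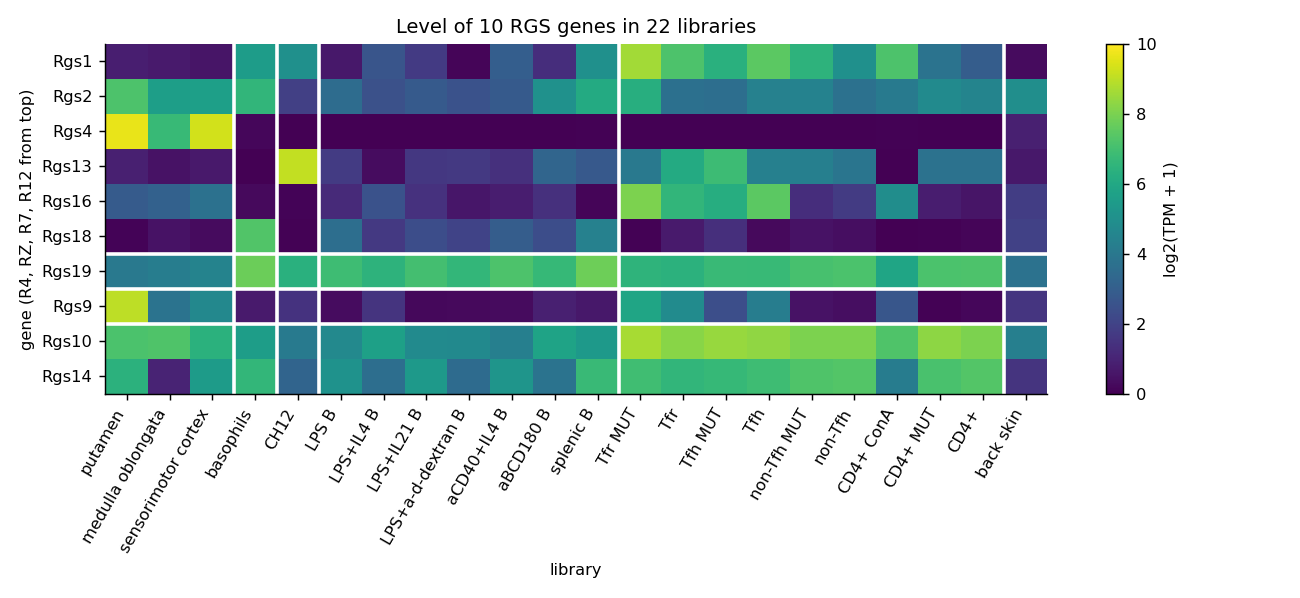
Colour gives log2(TPM + 1) of the 10 genes (rows, grouped by subfamily) in the 22 libraries (columns, 1 library each, white lines between cell types). Rgs4 is bright in the 3 brain columns alone, Rgs13 in CH12, and Rgs10 across all CD4 T columns.

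The spread of the genes differed. Rgs10 and Rgs19 were at 10 TPM or more in all 22 libraries, Rgs14 in 19 and Rgs2 in 17. Rgs1 reached that level in 11 libraries, Rgs13 in 9, Rgs9 and Rgs16 in 6, and Rgs4 and Rgs18 in 3. The ranking within a gene is finer than its counting error allows in places. Of 21 neighbouring pairs in the order of levels, exact Poisson 95% intervals overlapped for 6 pairs with Rgs14, 11 with Rgs1 and with Rgs10, 14 with Rgs19 and 17 with Rgs4, which was at 0 in 14 libraries. These intervals cover counting error only. In bulk samples such as these, fewer cells of a type and less RNA per cell cannot be told apart.

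Before the T-cell results, 2 libraries have to be set apart. Foxp3 was highest in the cells labelled Tfr: 579 and 433 TPM in Tfr MUT and Tfr cells, against 69.2 and 143 TPM in Tfh MUT and Tfh cells, and at most 17.8 TPM in non-Tfh cells. Regulatory T markers (Foxp3, Il2ra, Ctla4 and Ikzf2) summed to 1514 and 1258 TPM in Tfr MUT and Tfr cells. The sum was 293 and 483 TPM in Tfh MUT and Tfh cells, against 83.8 and 68.8 TPM in non-Tfh MUT and non-Tfh cells. The part of regulatory T RNA in the RGS levels of Tfh libraries was not tested. The 2 libraries stood out by the summed TPM of the B-cell markers Cd79a, Ms4a1 and Pax5. It was 374 in Tfh MUT and 267 in Tfr cells, against 51.6 to 73.5 in the other 6 libraries of these populations and 0.95 in ConA cells. All 3 markers were above 0 in each. The T-cell fits were therefore repeated without these 2 libraries. In these refits Tfr MUT alone stands for Tfr cells and the unmarked library alone for Tfh cells. Their SE holds no spread within Tfr or Tfh cells, so a smaller SE there is not greater certainty. Tfr against Tfh cells then also sets a MUT library against an unmarked one.

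Rgs16, which is known in lymphocytes for limiting migration to chemokines, was high in all follicular T cells and low in the other sorted populations. It was 257 and 95.1 TPM in Tfr MUT and Tfr cells and 73.6 and 176 TPM in Tfh MUT and Tfh cells. In non-Tfh MUT and non-Tfh cells it was 1.47 and 2.33 TPM, and in CD4+ MUT and CD4+ cells 0.74 and 0.49 TPM. All 4 follicular libraries were thus above all 4 others, with no overlap. The share of all genes with such a split is not given here. No split of this kind, for Rgs16 or the members below, is read as particular to them. In the fit of all 8 libraries (population and mutant label as terms) the log2 fold change from non-Tfh cells was 6.41 ± 0.83 (SE) for Tfr and 5.91 ± 0.80 for Tfh cells. Without the Tfh MUT and Tfr libraries, where 1 library stands for each of Tfr and Tfh cells, it was 7.18 and 6.30.

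Rgs9, better known from retina and striatum, followed Rgs16 in T cells. It was 57.6 and 27.1 TPM in Tfr MUT and Tfr cells and 4.30 and 17.9 TPM in Tfh MUT and Tfh cells. In the 4 non-Tfh and CD4+ libraries it lay between 0.05 and 0.42 TPM, from 9 to 108 expected counts. Again no follicular library overlapped with these, and again the share of all genes with such a split is not given. The log2 fold change from non-Tfh cells was 6.41 ± 0.93 for Tfr and 4.48 ± 0.88 for Tfh cells, and 6.75 ± 0.23 and 5.39 ± 0.25 without the 2 libraries. Over the 16 primary lymphocyte libraries Pearson's r of Rgs9 and Rgs16, on log2(TPM + 1), was 0.95, and over all 22 libraries it was 0.67. These libraries share the split into follicular and other cells, so r describes that split.

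Rgs1, a brake on chemotaxis in B and T cells, had a graded pattern. It was 386 and 145 TPM in Tfr MUT and Tfr cells, 79.4 and 176 TPM in Tfh MUT and Tfh cells, 86.7 and 31.3 TPM in non-Tfh MUT and non-Tfh cells, and 12.8 and 6.71 TPM in CD4+ MUT and CD4+ cells. All 6 Tfr, Tfh and non-Tfh libraries were above both CD4+ libraries. The Tfh and non-Tfh libraries overlapped. The log2 fold change from CD4+ cells was 4.43 ± 0.73 for Tfr, 3.68 ± 0.72 for Tfh and 2.40 ± 0.67 for non-Tfh cells, and 4.55 ± 0.15, 4.59 ± 0.15 and 2.38 ± 0.12 without the Tfh MUT and Tfr libraries. From non-Tfh cells it was 2.02 ± 0.65 for Tfr and 1.28 ± 0.67 for Tfh cells, and 2.17 ± 0.14 and 2.22 ± 0.15 without the 2 libraries.

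Among the members that varied less, Rgs19, an RZ protein acting on Gi subunits, and Rgs14, a scaffold that binds Gi subunits and small GTPases, were lower in follicular cells. Rgs19 was 90.8 and 85.5 TPM in Tfr MUT and Tfr cells and 107 and 106 TPM in Tfh MUT and Tfh cells, against 136 and 141 TPM in non-Tfh MUT and non-Tfh cells. Rgs14 averaged 107 ± 18.4 TPM in Tfr and 110 ± 11.3 TPM in Tfh cells, against 155 ± 8.80 TPM in non-Tfh and 148 ± 15.3 TPM in CD4+ cells (SD, n = 2 each). For both genes every follicular library was below every non-Tfh and CD4+ library, a split whose share over all genes is not given here. Without the Tfh MUT and Tfr libraries the log2 fold changes from non-Tfh cells in Tfr and Tfh cells were -0.70 ± 0.13 and -0.58 ± 0.13 for Rgs19, against -0.85 ± 0.12 and -0.56 ± 0.12 with all 8, and -0.38 ± 0.12 and -0.63 ± 0.13 for Rgs14, against -0.70 ± 0.21 and -0.66 ± 0.21. Rgs10, a small R12 protein of many immune cells, ranged only from 258 to 410 TPM over the 8 libraries. Rgs2 stood out in Tfr MUT cells alone, at 76.0 TPM, with 11.2 to 26.2 TPM in the other 7. Its log2 fold change in Tfr against non-Tfh cells was 1.10 ± 0.79 with all 8 libraries and 1.90 ± 0.14 without the 2 libraries, where Tfr MUT alone stands for Tfr cells.

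**Figure D2:**
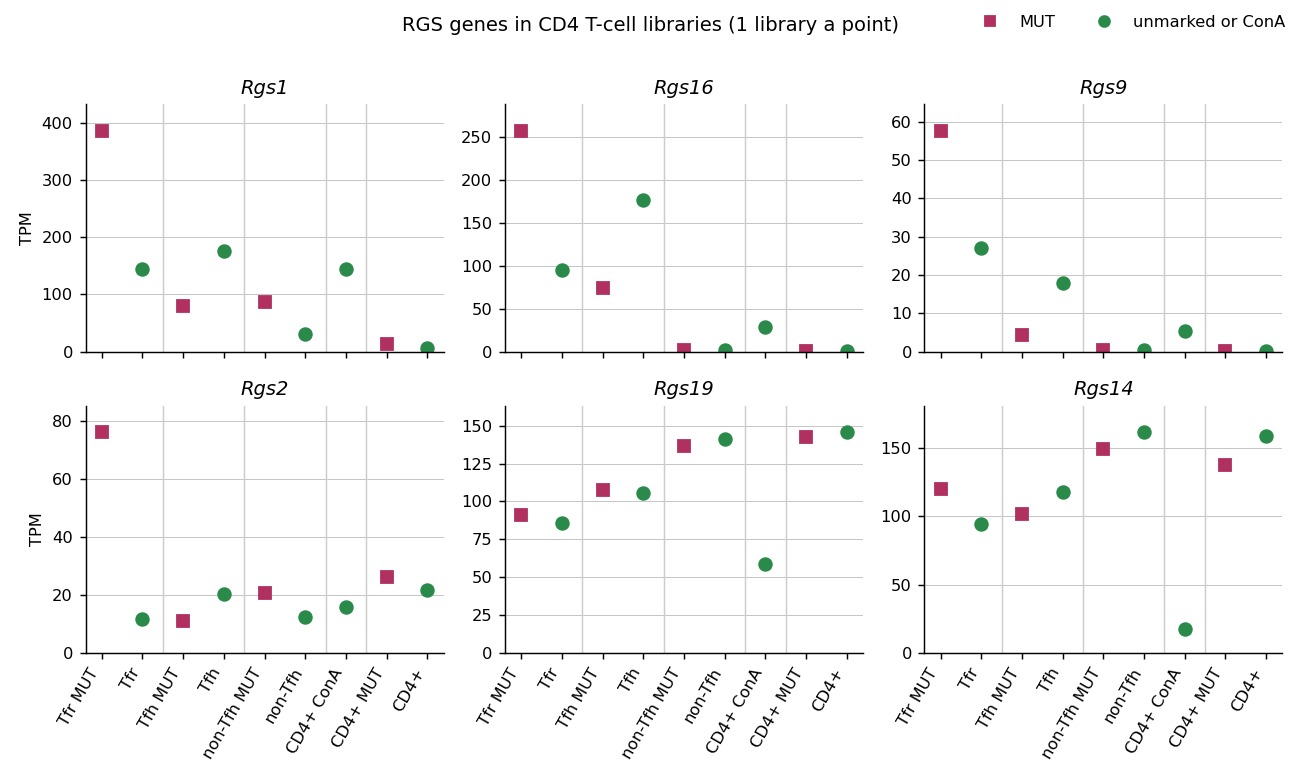
TPM (linear axis from 0, scaled per panel) of 6 RGS genes in the 9 CD4 T libraries, 1 point a library, MUT as squares and unmarked or ConA as circles. Rgs16 and Rgs9 are near 0 in all non-Tfh and CD4+ libraries, while Rgs19 and Rgs14 are lowest in ConA cells.

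Counted by the model (edgeR's quasi-likelihood test, Benjamini-Hochberg adjusted p under 0.05 over 13064 genes), 2 members were higher and 1 lower in Tfr than in non-Tfh cells, where 14.6% of all genes passed. In Tfh against non-Tfh cells 2 members were higher and 0 lower, where 6.58% passed. Against CD4+ cells, 3 members were higher and 2 lower in Tfr cells (30.4% of all genes), Tfh cells had 3 members higher and 1 lower (26.4%), and non-Tfh cells had 0 either way (3.85%). Between Tfr and Tfh cells 0 of the members passed (0.398%), and none of the 9 tested had an unadjusted p under 0.05 or was called by DESeq2 or limma. The members called were Rgs16 and Rgs9 (higher) in all 4 comparisons of follicular with other cells, Rgs1 (higher) and Rgs19 (lower) in both against CD4+ cells, Rgs19 also in Tfr against non-Tfh cells, and Rgs14 (lower) in Tfr against CD4+ cells. Without the Tfh MUT and Tfr libraries more members were called in each of these comparisons, Tfr against Tfh cells among them. List genes called, given below, also rose there in Tfr and in Tfh against non-Tfh cells. Without the Tfh library more members were called in Tfr against Tfh and in Tfh against CD4+ cells. The share of all genes called in these refits is not given here, so no rise is read as particular to the members. With either non-Tfh library left out 0 members were called in Tfr or in Tfh against non-Tfh cells. With either CD4+ library left out Rgs16 alone was called in Tfh against CD4+ cells and in Tfh against non-Tfh cells, and Rgs16, Rgs9 and Rgs19 in Tfr against CD4+ cells. With either Tfr library left out more members were called in Tfh against non-Tfh cells. The same held in Tfr against non-Tfh cells with either Tfh library left out, where Rgs1 was also called in non-Tfh against CD4+ cells. Rgs4 did not reach the count filter in T cells. Since the members were chosen from these values, nothing is read from these counts.

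The ConA culture combined parts of these patterns. Rgs1 was 145 TPM in ConA cells, against 12.8 and 6.71 TPM in CD4+ MUT and CD4+ cells, and Rgs16 was 28.6 TPM, against 0.74 and 0.49 TPM. Rgs9 was 5.39 TPM, against 0.05 and 0.12 TPM. Rgs14 was 17.2 TPM, against 137 and 159 TPM, which is 9.23-fold lower than in CD4+ cells. Rgs13 had 1 expected count, against 12.7 and 12.5 TPM. The B-cell marker sum was 0.95 TPM in ConA cells, against 53.3 and 51.6 TPM in CD4+ MUT and CD4+ cells. Its part in the Rgs13 difference was not tested. A difference of at least 4-fold on the TPM + 1 scale from both CD4+ libraries, with at least 10 TPM on the higher side, was met by Rgs1 and Rgs16 (higher) and Rgs13 and Rgs14 (lower), and by 3.79% of all genes. Among signalling partners under the same rule, Gnb5, the obligate partner of R7 proteins, was 22.2 TPM in ConA cells, against 1.69 to 2.17 TPM in the CD4+ libraries. The sphingosine phosphate receptor S1pr1 was 27.8 TPM, against 362 to 422 TPM. With 1 ConA library there is no test.

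Rgs13, an R4 member known from germinal centre B cells and mast cells, moved with B-cell marker RNA in the T-cell libraries. It was 15.6 and 68.0 TPM in Tfr MUT and Tfr cells, 114 and 19.3 TPM in Tfh MUT and Tfh cells, 19.2 and 13.8 TPM in non-Tfh MUT and non-Tfh cells, and 12.7 and 12.5 TPM in CD4+ MUT and CD4+ cells. Per 100 TPM of the summed B-cell markers this was 23.3 to 30.4 TPM in all 8 libraries. Over these 8 libraries r of Rgs13 with the marker sum was 0.99 on the log2(TPM + 1) scale. Tfh MUT and Tfr cells lay apart, with marker sums of 374 and 267 TPM, against 51.6 to 73.5 TPM in the other 6 libraries. This r therefore describes mainly that gap. The fitted log2 fold change of Rgs13 in Tfr and Tfh against non-Tfh cells was 1.20 ± 0.93 and 1.77 ± 0.93, and without the Tfh MUT and Tfr libraries -0.28 ± 0.20 and 0.22 ± 0.20. The primary B libraries gave another ratio: with marker sums of 1361 to 5694 TPM, Rgs13 was 0.26 to 8.57 TPM, or 0.013 to 0.45 TPM per 100 TPM of markers. CH12 had 45.4 TPM of Rgs13 per 100 TPM of markers. Jchain, the joining chain of secreted antibodies, was 108 and 70.8 TPM in Tfh MUT and Tfr cells, against 12.02 to 20.9 TPM in the other 6 libraries. The part of B-lineage RNA in the Rgs13 level of T-cell libraries was not tested.

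**Figure D3:**
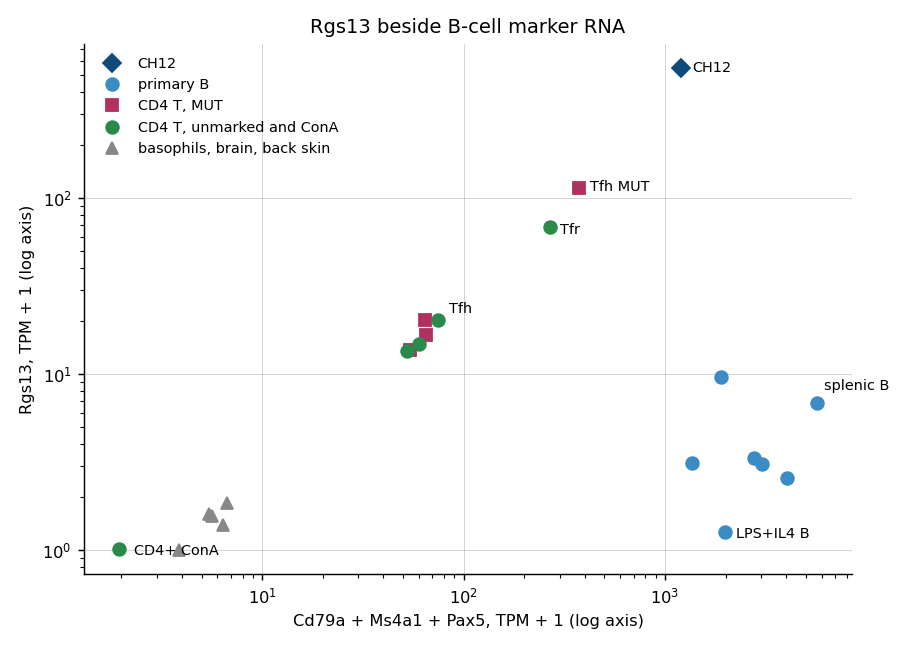
Rgs13 (vertical, TPM + 1) against the summed B-cell markers (horizontal, TPM + 1), both on log axes, 1 point a library. The 8 T-cell libraries other than ConA fall on a line of about constant ratio, with Tfh MUT (114 TPM) and Tfr (68.0 TPM) at its upper end, while the 7 primary B libraries lie far to the right at 8.57 TPM or less.

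The rule that chose the genes does not set MUT against unmarked cells, so this comparison was tested. The rule did use levels in the MUT libraries, so the test is not fully separate from the choice. In the 8 libraries edgeR's test called 0 of 9 members and 0 of 13064 genes for MUT against unmarked cells, which is 0.0% of genes, with 192 genes at an unadjusted p under 0.05. No member had an unadjusted p under 0.05. DESeq2 called 2 genes and limma 0, none of them a member. The log2 fold changes were 0.74 ± 0.48 for Rgs1, 0.70 ± 0.59 for Rgs2, 0.24 ± 0.13 for Rgs10 and 0.01 ± 0.53 for Rgs16, each with an adjusted p of 1.0. Rgs1 was higher in MUT than in unmarked cells in 3 of 4 populations, the exception being Tfh. The Tfh MUT and Tfr libraries were then left out because earlier results of these data pointed to them. This leaves pairs in non-Tfh and CD4+ cells only. There edgeR gave 1.22 ± 0.12 for Rgs1 and 0.49 ± 0.11 for Rgs2, both past the threshold. With so few pairs left, and the left-out libraries picked from these data, no MUT effect is read from these calls. Leaving out either Tfh library alone also brought Rgs1 past the threshold (1.34 ± 0.13 without Tfh MUT and without Tfh). Without Tfr or Tfr MUT alone Rgs1 was not called (0.41 ± 0.53, edgeR adjusted p = 0.942 and 0.941), nor was it without any 1 of the non-Tfh or CD4+ libraries. The Rgs1 call thus depended on whether both Tfh libraries entered.

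Some receptors and effectors around the RGS genes passed the test in the same T-cell comparisons. Of 93 tested genes in lists of other RGS genes, G protein subunits, leukocyte receptors, regulators and effectors, and brain receptors, 11 rose and 21 fell in Tfr against non-Tfh cells, where 14.6% of all genes passed, and 8 rose and 12 fell in Tfh against non-Tfh cells, where 6.58% passed. The lists were chosen with earlier results of these data known and were not tested as lists. The receptors for CXCL12 and for prostaglandin E2 rose: Cxcr4 was 175 ± 43.8 TPM in Tfr and 199 ± 9.64 TPM in Tfh cells, against 42.1 ± 13.9 TPM in non-Tfh cells (SD, n = 2 each), and Ptger2 rose by 2.70 ± 0.36 (SE) in Tfr and 2.26 ± 0.35 in Tfh cells on the log2 scale. S1pr1, the receptor that directs exit from lymphoid organs, fell, with log2 fold changes of -2.78 ± 0.15 in Tfr and -1.19 ± 0.15 in Tfh against non-Tfh cells (edgeR adjusted p = 0.00158 and 0.012). It was also lower in Tfr than in Tfh cells (log2 fold change -1.59 ± 0.15, edgeR adjusted p = 0.0231). Gnaq, the Gq alpha subunit, rose to 24.7 ± 6.20 TPM in Tfr and 21.8 ± 5.08 TPM in Tfh cells, against 3.62 ± 0.00707 TPM in non-Tfh cells (edgeR adjusted p = 0.00231 and 0.00599).

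Among the downstream genes, Pik3r5, a regulatory subunit of the phosphoinositide kinase that G beta gamma activates, fell to 19.2 ± 5.70 TPM in Tfr and 35.0 ± 3.65 TPM in Tfh cells, against 103 ± 17.4 TPM in non-Tfh cells. Adcy6, an adenylyl cyclase, fell to 2.25 ± 0.53 and 1.91 ± 0.0424 TPM, against 11.7 ± 4.61 TPM. Over the 31 tested regulators and effectors the median log2 fold change was -0.40 for Tfr and -0.25 for Tfh against non-Tfh cells. The median over all genes was 0.02 in both, and the list itself was not tested. Of the 5 other RGS genes tested, 2 rose and 1 fell against CD4+ cells in both Tfr and Tfh cells. Rgs3, an R4 member, rose to 157 ± 20.4 TPM in Tfr and 156 ± 20.8 TPM in Tfh cells, against 57.4 ± 3.39 TPM in CD4+ cells, and Rgs11, an R7 member, fell to 3.52 ± 0.445 and 3.64 ± 0.481 TPM, against 22.7 ± 2.80 TPM. The other one that rose was the R4 member Rgs8, known from neurons and named after its values were seen, with 1.65 and 3.17 TPM in Tfh MUT and Tfh cells and 0.26 and 0.32 TPM in Tfr MUT and Tfr cells, while both CD4+ libraries had 0 counts. All list genes named here kept their direction without the Tfh MUT and Tfr libraries. The SE of that refit holds no spread within Tfr or Tfh cells, so calls in it are not read as a check on these genes. The number of list genes called moved with the libraries: in Tfh against non-Tfh cells it was 20 with all 8, 43 without the Tfh MUT and Tfr libraries, 41 without Tfh and 0 without either non-Tfh library. In Tfr against non-Tfh cells it was 32, against 54 without the 2 libraries, 6 without non-Tfh, 4 without non-Tfh MUT and 21 without either CD4+ library.

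In B cells, every activated culture had less Rgs1, Rgs2, Rgs14, Rgs18 and Rgs19 than splenic B cells, which gave 1 library and so no test. The share of all genes with such an order is not given here, so the order is not read as particular to these members. Rgs1 was 1.51 TPM in aBCD180 cells, 6.95 TPM in aCD40+IL4 cells, 0.56 TPM in LPS cells, 0.11 TPM with a-d-dextran, 2.26 TPM with IL21 and 5.18 TPM with IL4 beside LPS, against 31.1 TPM in splenic B cells. All 6 cultures were below splenic B cells, by 4.47-fold in aCD40+IL4 to 55.5-fold in LPS cells, while LPS+a-d-dextran cells had 3 expected counts (0.0236 to 0.335 TPM by the exact Poisson 95% interval). The Gq-directed Rgs2 was 32.7, 6.03, 10.7, 4.74, 6.21 and 4.64 TPM in the same order of cultures, against 67.9 TPM in splenic B cells. The aBCD180 culture had the highest Rgs2 of the cultures, still below splenic B cells. Rgs14 was 10.2 to 40.0 TPM in the cultures (median 23.1), against 107 TPM in splenic B cells, and Rgs18 was 2.18 to 11.2 TPM (median 4.11), against 19.96 TPM.

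Rgs19 and Rgs10 changed less. Rgs19 was 87.5 to 149 TPM in the cultures (median 111), against 220 TPM in splenic B cells, and Rgs10 was 18.7 to 55.5 TPM (median 26.3), against 41.6 TPM, so the Rgs10 range spans the splenic value. By the 4-fold rule, Rgs1 was the 1 member lower in all 6 cultures than in splenic B cells (0.677% of all genes met the rule), and without the aBCD180 culture Rgs2 met it too. Myeloid markers (Lyz2, Csf1r, Itgam and Cd14) summed to 1.68 to 33.8 TPM in the cultures, against 168 TPM in splenic B cells, and their part in the higher RGS levels there was not tested. The G protein-coupled receptor kinase Grk3 and S1pr1 moved the same way, at 0.18 to 0.97 TPM and 3.61 to 70.0 TPM in the cultures, against 21.2 and 308 TPM in splenic B cells. Between the 2 cultures with IL4 and the other 4, 0 members met the rule (0.0387% of all genes).

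**Figure D4:**
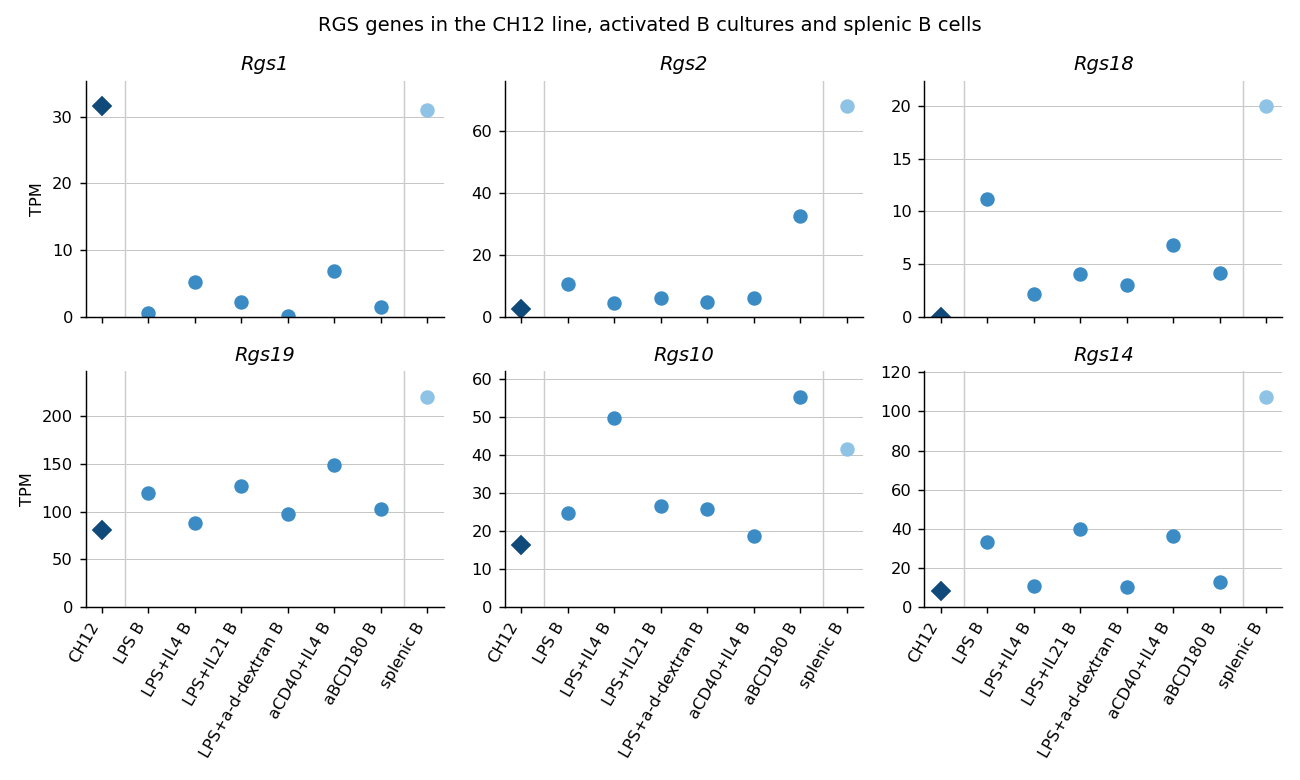
TPM (linear axis from 0, scaled per panel) of 6 RGS genes in CH12, the 6 activated B cultures and splenic B cells, 1 point a library. Splenic B cells are highest for Rgs2, Rgs18, Rgs19 and Rgs14, while Rgs1 is as high in CH12 (31.6 TPM) as in splenic B cells (31.1 TPM).

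The CH12 lymphoma line was set apart from primary B cells by Rgs13. Rgs13 was 547 TPM in CH12, against 8.57 TPM in aBCD180, 5.84 TPM in splenic and 0.26 to 2.34 TPM in the other primary B cells. It was the 1 member to meet the 4-fold rule against all 7 primary libraries, which 1.45% of all genes met. Rgs21, which lies beyond Rgs1 from Rgs13 in the chromosome 1 group, was at 0 TPM in every primary B library. Rgs2 was 2.73 TPM and Rgs14 8.33 TPM in CH12, below all primary B libraries, and Rgs16 was 0.07 TPM. Rgs1 was 31.6 TPM in CH12, close to splenic B cells and above all activated cultures. Around them, the G beta subunit Gnb3 was 31.1 TPM in CH12, against at most 0.52 TPM in primary B cells, and the chemokine receptor Ccr6 was 1.17 TPM, against 33.2 to 220 TPM. CH12 is 1 clone in 1 library, so its own spread is unknown.

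Between the 7 primary B and the 9 CD4 T libraries, edgeR's test called 1 member higher and 6 lower in B cells, where 46.4% of 12437 genes passed, and the members' choice used these levels. Rgs10 had no overlap: 18.7 to 55.5 TPM in B cells (median 26.6), against 150 to 410 TPM in T cells (median 297). Rgs18 did not overlap in the other direction, with 2.18 to 19.96 TPM in B cells (median 4.13), against 0 to 1.56 TPM in T cells (median 0.19). The ranges of the other 7 tested members overlapped. The share of all genes without overlap is not given here, so nothing is read from this split. Among the lists, 7 of 85 tested genes rose and 32 fell in B cells. The median log2 fold change of the 27 tested leukocyte receptors was -1.68, beside 0.01 over all genes. These receptors were picked with earlier results of these data known and were not tested as a list, so the median describes that choice. Arrb2, an arrestin that uncouples receptors from G proteins, averaged 43.4 ± 14.9 TPM in B cells (SD, n = 7) and 274 ± 87.3 TPM in T cells (SD, n = 9; edgeR adjusted p = 9.51e-07). Rgs3 averaged 12.5 ± 9.21 TPM in B cells and 109 ± 50.1 TPM in T cells (edgeR adjusted p = 3.1e-05).

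Basophils were set apart by Rgs18, which is known from platelets and their precursors. It was 154 TPM in basophils, against 19.96 TPM in splenic B cells, 2.18 to 11.2 TPM in activated B cultures and at most 1.56 TPM in CD4 T cells. Rgs18 was the 1 member to meet the 4-fold rule against all 16 primary lymphocyte libraries, which 2.19% of all genes met. Of the platelet markers, Itga2b was 982 TPM in basophils, while Pf4 was 1.02 TPM, Ppbp 0.04 TPM and Gp1bb 0 TPM. The basophil markers Mcpt8 (12997 TPM), Cpa3 (5472 TPM) and Fcer1a (1268 TPM) were high, and myeloid markers summed to 1636 TPM. Rgs2 was 96.1 TPM and Rgs19 215 TPM in basophils, both among their 2 highest libraries. Rgs13, known from mast cells, had 0 expected counts in basophils, for which a floor of 3 counts allows 0.095 TPM. Several receptors for inflammatory ligands were high beside Rgs18, among them the leukotriene B4 receptor Ltb4r1 with 241 TPM in basophils, against at most 7.83 TPM in lymphocytes, and the histamine receptor Hrh4 with 76.0 TPM, against at most 3.19 TPM.

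In brain, Rgs4 and Rgs9 divided the regions. Rgs4, an R4 protein of neurons, was 822 TPM in putamen, 104.4 TPM in medulla oblongata and 637 TPM in sensorimotor cortex, against at most 0.83 TPM, in back skin, among the other 19 libraries. It was the 1 member to meet the 4-fold rule for all brain against all other libraries, which 5.22% of all genes met. Rgs9 was 510 TPM in putamen, against 13.0 TPM in medulla oblongata and 24.5 TPM in sensorimotor cortex, and alone met the rule for putamen (0.963% of all genes). Rgs14 was 1.02 TPM in medulla oblongata, against 86.1 TPM in putamen and 44.1 TPM in sensorimotor cortex. Rgs14 and Rgs4 were the 2 members lower in medulla oblongata by the rule (1.31% of all genes), and 0 members met it for sensorimotor cortex (0.576%).

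Other members varied less over the regions. Rgs2 was 147 TPM in putamen, against 47.1 TPM in medulla oblongata and 49.1 TPM in sensorimotor cortex. Rgs10, known in brain from microglia, was 143, 149 and 83.6 TPM in putamen, medulla oblongata and sensorimotor cortex. The microglia markers P2ry12, Tmem119 and Cx3cr1 summed to 135, 83.3 and 139.6 TPM in the same order. The part of microglia in the Rgs10 levels was not tested. Rgs16 was 6.27, 7.64 and 12.3 TPM and Rgs19 15.4, 17.8 and 21.3 TPM. Rgs1, Rgs13 and Rgs18 were below 1 TPM in all 3. Of the other RGS genes, 5 of 10 met the rule for brain, among them Rgs7 with 43.0 to 95.5 TPM in brain, against at most 0.48 TPM elsewhere, and the neuronal R4 member Rgs8 with 43.4 to 120 TPM, against at most 3.17 TPM. Rgs7bp, which anchors R7 proteins to membranes, was 64.0 to 243 TPM in brain, against at most 0.47 TPM elsewhere.

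The receptors and enzymes that Rgs9 is known to act beside were high in the same region. The dopamine receptors Drd2 and Drd1 were 250 and 195 TPM in putamen, against at most 21.8 and 11.8 TPM in the other regions. Adora2a, the adenosine receptor of striatal neurons, was 493 TPM, against 1.62 to 19.9 TPM, and Adcy5, the striatal adenylyl cyclase, was 778 TPM, against 55.1 to 83.1 TPM. The G gamma subunit Gng7 was 1653 TPM in putamen, against 35.6 to 120 TPM. Each brain region is 1 library, so these differences have no replicate check.

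A readout that the choice of genes did not use is the transcript mix of Rgs9. In RSEM output the length of a gene is the mean over its transcripts weighted by abundance, and Rgs9 has 2 annotated transcripts, while 7 of the other members have 1. The deposited Rgs9 length was 2922 bases in putamen, 4707 bases in medulla oblongata and 3382 bases in sensorimotor cortex. In T cells with Rgs9 it was 4833 and 5085 bases in Tfr MUT and Tfr cells, 5168 and 5421 bases in Tfh MUT and Tfh cells and 5956 bases in ConA cells. It reached 7629 bases in 4 libraries with 9 to 364 expected counts. Putamen thus had the shortest mix of all libraries, and each T-cell library had a longer one than every brain region. Which of the 2 proteins, of 484 and 675 residues, the longer transcript encodes cannot be read from these files. With 1 library a region and a length estimated from few reads at low levels, there is no test of this difference.

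**Figure D5:**
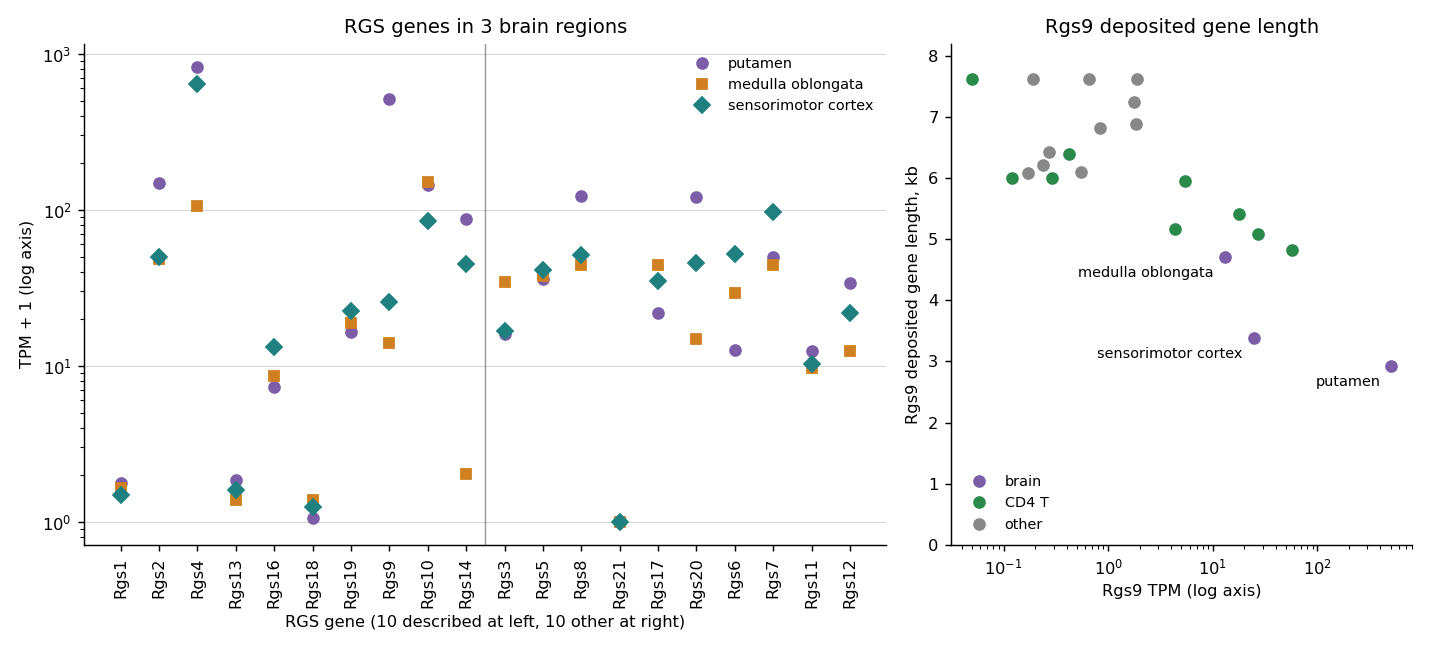
At left, TPM + 1 (log axis) of 20 RGS genes in putamen, medulla oblongata and sensorimotor cortex, 1 point a library. At right, the deposited Rgs9 gene length in kilobases against Rgs9 TPM (log axis) in the 22 libraries. Putamen is highest for Rgs4 and Rgs9 and has the shortest Rgs9 length.

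The genes whose pattern was most like each member were sought over the 22 libraries by Pearson's r of log2(TPM + 1), as a description. For Rgs16 they were Npas4 (0.95), C2cd4b (0.93) and Phactr2 (0.92), out of 13525 genes compared, of which 4 reached 0.9. For Rgs9 they were Tmem158 (0.95), Ptpn5 (0.94) and Penk (0.94), and over the 16 lymphocyte libraries Penk was again among the first 3, with 0.97. Penk, which encodes the enkephalin precursor, was 1571 and 360 TPM in Tfr MUT and Tfr cells and 3145 TPM in putamen. It was 40.8 and 320 TPM in Tfh MUT and Tfh cells and 41.45 TPM in ConA cells. In non-Tfh MUT and non-Tfh cells it was 1.64 and 1.22 TPM, and in CD4+ MUT and CD4+ cells 0.82 and 0.34 TPM. For Rgs1 they were Cst7 (0.91), Il12rb1 (0.90) and Ifnar2 (0.89), and for Rgs13 Bcl2a1a (0.97), Madcam1 (0.94) and Tex13b (0.94). For Rgs18 they were Lilra6 (0.97), Pira6 (0.97) and Pira1 (0.94), receptors of 1 family whose reads may be shared. Rgs4 had 1406 genes at 0.9 or more, since any gene confined to brain follows it, and Rgs2 had none, with Pld3 (0.79) first. The libraries share cell types and depths, so these values describe the series and not a relation between genes.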

How the data were processed

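Poly(A) RNA of 22 mouse libraries was sequenced by the authors. Per the file headers, the authors deposited RSEM gene tables with an expected count (an estimated count of reads per gene), TPM and gene lengths. The submitters' processing notes name CASAVA 1.8.2, STAR, RSEM, bedtools and mm10. Each table held 24911 genes. Of these, 20674 were protein-coding, and the other 4237 were at 0 in every library. In RSEM output TPM is scaled by effective length. The offset between length and effective length was 49.0 bases in CH12, ConA, splenic B and LPS+IL4 B cells. It was 48.56 to 48.57 bases in the other libraries, a difference that shifts a member's TPM by at most 0.053%. Comparisons resting on the single ConA, splenic B or CH12 library coincide in large part with this difference. Whether anything else in the handling of these libraries differed with it was not tested.

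Groups were taken from the sample labels, with 1 library in each. Expected counts were rounded and tested with edgeR 4.0.16 (quasi-likelihood, TMM scaling, filterByExpr, R 4.3.3). The model of the 8 T-cell libraries had terms for population and for the MUT label, so libraries of a population served as replicates of it. A second fit compared 7 primary B with 9 CD4 T libraries. P-values were adjusted by Benjamini-Hochberg over all genes tested. A size rule with no test was used for comparisons with 1 library on a side, for brain against all other libraries and for IL4 against other B cultures: log2(TPM + 1) differing by at least 2 between every library of both sides, with at least 10 TPM on the higher side. Up to 4 list genes a direction were named, by largest change, with at least 10 TPM on the higher side, and 3 genes most like each member by Pearson's r. Members and lists were chosen with earlier results of these data known. Alternatives were DESeq2 1.42.0, limma 3.58.1 on log2(TPM + 1), other size factors, no filter, a pseudocount of 0.1, a minimum of 1 TPM, a size of 1, TMM-scaled CPM in place of TPM, and leaving out libraries. The procedures were tested on simulated data. Motifs and figures were made with Python 3.11.15, pandas 2.3.3 and matplotlib 3.10.9. Total expected counts of 30.8 to 147.9 M per library set the precision of each level, and 86.1% of the counts above 0 were whole numbers. No 2 libraries held identical values. Protein sequences were not used here, and some marker genes are not reported here and were left out of the marker sums.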

Additional observations from a re-analysis of the deposited data

Results flagged for a closer look

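For 4 of the 10 genes, the MUT and the unmarked library of one T-cell population differed in one direction and those of another population in the opposite direction, by at least 1 on the log2(TPM + 1) scale. With 1 MUT and 1 unmarked library in each population, these differences between populations were not tested. Rgs1 differed (MUT minus unmarked) by 1.44 in non-Tfh cells and by -1.14 in Tfh cells. Rgs16 differed by 1.42 in Tfr cells and by -1.25 in Tfh cells. Rgs9 differed by 1.06 in Tfr cells and by -1.84 in Tfh cells. Rgs13 went the other way, with -2.05 in Tfr cells and 2.5 in Tfh cells. The B-cell marker sum differed in the same direction as Rgs13, with 64.3 and 267 TPM in Tfr MUT and Tfr cells and 374 and 73.5 TPM in Tfh MUT and Tfh cells, and its part in these differences was not tested.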

How the results depend on the processing

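The 1 member lower in activated than in splenic B cells became 3 with a size of 1 on the log2 scale and 1 to 2 with each culture left out. The 1 member higher in putamen became 2 with a size of 1. List genes called (members not counted) in Tfh against non-Tfh cells numbered 20, against 33 with DESeq2, 43 without the Tfh MUT and Tfr libraries and 0 to 41 with each library left out. In Tfr against non-Tfh cells they numbered 32, against 54 without that pair and 4 to 48. In Tfr against Tfh cells they numbered 2, against 4 with no filter, 15 with DESeq2, 19 without that pair and 0 to 11. Against CD4+ cells they numbered 52 in Tfr (29 to 58), 52 in Tfh (26 to 62) and 18 in non-Tfh cells (31 with DESeq2, 49 without that pair, 4 to 30). For MUT, the number of members called moved up from 0 without that pair and with either Tfh library left out, as described above. The cause of these moves was not tested. Of 1378 refitted values of named list genes, 1239 kept direction and call, 139 fell short of the threshold and 0 changed sign. Of 894 values of members in comparisons other than MUT, which carry no test, 759 stayed within 1 SE of the first fit, 135 did not and 41 changed sign, none of them a called value. For MUT, 4 of 116 values of members newly passed the threshold and 25 changed sign, none past it. A population with 1 library left was assumed to vary like the others. No paired analysis was possible because each labelled group held 1 library, so groups shared fewer than 2 replicate numbers to block on. The MUT comparison was fitted within populations throughout.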
